A study of Mus musculus with 30 samples.

Results

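The genes described here were those whose level in both liver and kidney lay furthest above every other tissue of an atlas of 15 adult mouse tissues. They were chosen from the authors' value table, which holds 25030 probes on a log10 scale. For each probe the level of a tissue was the mean of its 2 arrays, and the gap was the lower of liver and kidney minus the highest of the other 13 tissues. The 60 probes with the largest gap among the 5622 probes that had a gene symbol were taken, with 1 named probe left out by the rule. Only 22.5% of the probes had a symbol, and the 60 genes lay between rank 2 and rank 316 by gap over all probes, so probes without a name were in large part not described. The gap was measured in the same arrays that are described below, and the height of liver and kidney over the other tissues is therefore a description with no test.

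Liver and kidney share a set of tasks that few other organs take on. Both break down amino acids, oxidise fatty acids in mitochondria and peroxisomes, make glucose in fasting and chemically modify drugs and other foreign compounds. In the kidney these enzymes sit mainly in the cells of the proximal tubule, and in the liver in the hepatocytes. The hepatocyte nuclear factors HNF1 and HNF4 are known regulators of genes in both cell types.

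The RNA came from male C57BL/6 mice, adult and aged 28 weeks by the labels (the methods of the study give another age), with no treatment, transgene or deletion named. Each of the 15 tissues (liver, kidney, small and large intestine, stomach, bladder, lung, heart, muscle, bone, fat, skin, eyes, brain cortex and cerebellum) was hybridised on 2 arrays, 30 in all, in Cy3 against a common Cy5 reference. The reference was a pool of RNA from mouse cell lines, among them lines of liver and kidney origin, mixed with embryonic stem cell RNA. The series description says that replicates came from different animals except in bone and fat, and which animals gave the fat and bone arrays stayed unclear. Values below are log2(Cy3/Cy5) after background correction and loess, so that 0 means as much as in the reference. A whole tissue was ground up in each case, so fewer cells of a type and less RNA per cell cannot be told apart.

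Between 53.9% and 76.9% of the probes on an array had a Cy3 signal well above background, as the scanner software judged it. Both liver arrays lay on 1 slide and both kidney arrays on another, so slide and tissue cannot be told apart in their comparison, though all 4 were scanned on the same day. The arrays of large intestine and of fat stood apart within their tissue. Hepatocyte markers were high in liver (7 of 8 measured markers were highest there) and 3 of 5 measured kidney markers were highest in kidney. The remaining kidney markers had their highest level elsewhere, Slc23a3 in stomach and the water channel Aqp1 in lung. Summed over its 8 measured markers on the linear scale, the log2 hepatocyte level was 10.2 and 10.1 in liver, 6.91 and 7.42 in kidney and 2.80 to 7.11 in the other tissues. Most of the kidney sum was F13b, one of the 60 genes, and without it the sum was 9.83 and 9.78 in liver and 4.12 and 4.11 in kidney. Over the 5 kidney markers it was 5.38 and 5.72 in kidney, 2.93 and 2.96 in liver and 1.75 to 4.99 elsewhere. In the kidney arrays 3 hepatocyte markers were at background, namely C4bp at -0.66 and -0.58, Cps1 at -0.36 and -0.60, and Serpinc1 at 0.18 and 0.32. In liver these markers read 7.14 and 7.24, 9.06 and 8.87, and 5.25 and 5.36. The renin gene Ren1 read 0.17 and 0.39 in liver against 3.29 and 3.74 in kidney. Other markers were shared in part: F5 read 2.83 and 2.42 in kidney, and Slc22a12 0.997 and 1.29 in liver.

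All 60 genes passed the filter used for the tests, which asked for 1 or more tissues with Cy3 well above background on each of its 2 arrays. The signal was well above background on both liver arrays for 59 of them and on both kidney arrays for 60. On the log2 ratio, liver and kidney were the top tissues for 60 of 60 genes. In 56 of 60 all 4 liver and kidney arrays lay above the 26 other arrays. Over all 21026 probes tested, 1.92% had this separation, a share given only for scale since the rule chose the genes for it. The median gap was 0.33 on the log10 scale, or 2.12-fold. It exceeded 2-fold in 31 genes and 10-fold in 4. In Acss2, Arhgap42, Jmjd8 and 1700067K01Rik, the 4 genes without full separation, at least 1 array of another tissue reached the lowest of the liver and kidney arrays.

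**Figure D1:**
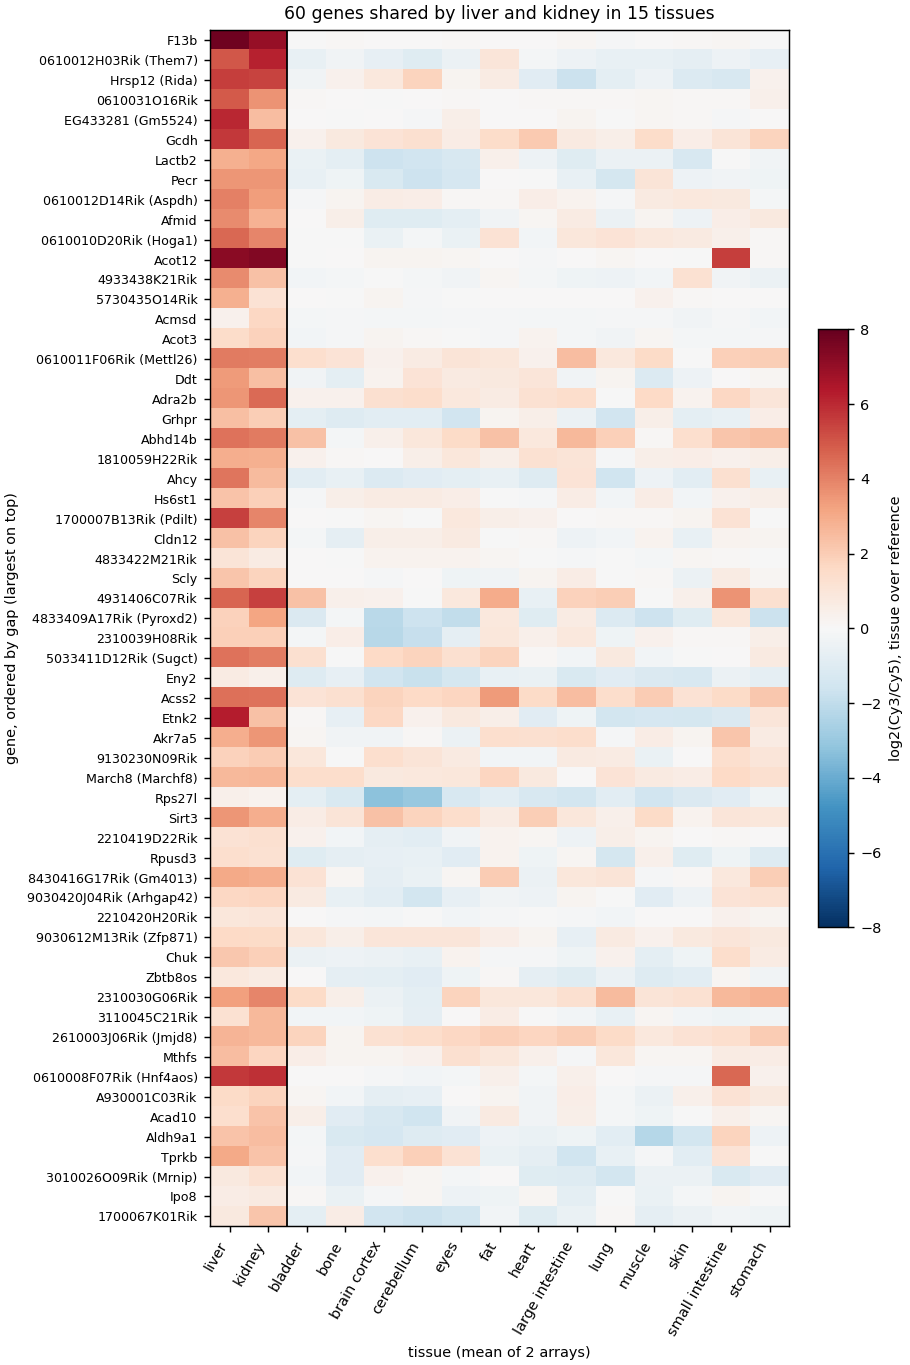
Mean log2(Cy3/Cy5) of 2 arrays (colour) for the 60 genes (rows, largest gap on top) in 15 tissues (columns), with liver and kidney left of the line. Red in liver and kidney marks every row by the choice of genes. Small intestine also carries strong red for Acot12 and Hnf4aos.

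The genes differed in how widely they were detected elsewhere. In 11 genes the signal was well above background on 10 or fewer of the 26 arrays outside liver and kidney, and in 46 it was so on 23 or more. For 40 genes it was well above background on all 26. Between the limits of 10 and 23, which were set by hand, lay 3 genes. Most of the 60 were therefore detected widely. The same counts were not taken over all probes, of which 53.9% to 76.9% were well above background on an array. Wide detection is thus not a trait shown to be particular to the list. The 11 detected on few other arrays include Acot12, which was also high in small intestine, and Acmsd, which was not well above background in liver.

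By role, the genes fell into 11 of amino acid and folate metabolism, 7 of acyl-CoA and lipid metabolism, 9 other enzymes, 7 secreted, membrane or signalling proteins and 10 proteins of the nucleus, of RNA or of protein handling. A further 10 were long noncoding RNAs by the current annotation and 6 were uncharacterised or had no current name. These counts depend on which probes had a symbol, and the named probes were not an even sample of the array. Of the 5148 named probes with a position, 1035 lay on chromosome 1. The median gap was 3.25-fold in the amino acid group, 3.04-fold in the acyl-CoA group and 1.51-fold in the nuclear and RNA group. The gap ran from 1.46-fold to 13.4-fold in the amino acid group, from 1.43-fold to 4.99-fold among the other enzymes and from 1.41-fold to 2.96-fold in the nuclear and RNA group. Each of the 10 nuclear and RNA genes was detected on all 26 other arrays. Of the 10 long noncoding RNAs, 5 were detected on 10 or fewer.

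F13b, the carrier subunit of coagulation factor XIII, had the largest gap of the 60. It read 7.95 and 7.64 in liver and 6.68 and 7.27 in kidney. The other 26 arrays ran from -0.15 to 0.20, with a median of 0.06, and on 0 of them was the signal well above background. Set against the signal of the probe itself in brain cortex, the next tissue, kidney was at least 112-fold higher in Cy3. F13b is itself a hepatocyte marker, and the hepatocyte markers Cps1, C4bp and Serpinc1 were at background on the same kidney arrays. The reference held F13b above background on 0 of 30 arrays, so its log2 ratio is a Cy3 level over a background value.

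Them7 (0610012H03Rik in the files), of the thioesterase family that cuts acyl-CoA, read 4.80 and 5.11 in liver and 6.26 and 6.09 in kidney. The median of the other arrays was -0.57. Only fat replicate 1, at 2.03, came near, while fat replicate 2 read -0.10.

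Among the amino acid enzymes near the top, Rida and Gcdh were detected on all 26 other arrays. Rida (Hrsp12), which hydrolyses reactive imines formed in amino acid breakdown, read 5.39 and 5.63 in liver and 5.48 and 5.31 in kidney. Cerebellum was next at 1.87 and 1.63, and the median of the other arrays was -0.29. Gcdh, the mitochondrial dehydrogenase of lysine and tryptophan breakdown, read 5.58 and 5.77 in liver and 4.79 and 4.58 in kidney, with heart next at 2.08 on both arrays. Both genes thus stood more than 2 log2 units above every other tissue, with closely matched replicates.

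Aspdh (0610012D14Rik), named for an aspartate dehydrogenase domain, read 3.98 and 4.14 in liver and 3.39 and 3.27 in kidney, with a highest other array of 1.19. Afmid, the formamidase of the kynurenine route, read 3.54 and 4.0 in liver and 2.71 and 2.80 in kidney, with a highest other array of 1.09. Hoga1 (0610010D20Rik), the aldolase that ends hydroxyproline breakdown, read 4.53 and 4.62 in liver and 4.03 and 3.76 in kidney. Grhpr, which reduces the glyoxylate formed by Hoga1, read 2.65 and 2.13 in liver and 1.85 and 2.07 in kidney, with a highest other array of 0.62. In all 4 of these genes the liver and kidney arrays lay above every other array.

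Acmsd, the decarboxylase that turns tryptophan breakdown away from NAD synthesis, went against the label of the list. It read 1.27 and 2.05 in kidney and 0.36 and 0.30 in liver, where the signal was well above background on 0 of 2 arrays. It passed the filter only through kidney, and the reference was well above background on 2 of 30 arrays, so no fold between kidney and liver is given. On the 26 other arrays it was likewise never well above background, so its liver level can be set above theirs by no measurable fold.

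Among the acyl-CoA enzymes, Pecr, the peroxisomal reductase of fatty acid elongation, read 3.55 and 3.48 in liver and 3.62 and 3.46 in kidney. Muscle was next at 1.09 and 1.01. Acot3, a peroxisomal thioesterase, read 0.90 and 2.02 in liver and 1.36 and 2.36 in kidney, so that its replicates differed by more than 1 in both organs. Acad10, of the acyl-CoA dehydrogenase family, read 1.23 and 1.41 in liver and 2.21 and 2.35 in kidney, with fat next at 0.93 and 0.46. Acot12, the cytosolic thioesterase of acetyl-CoA, read 7.59 and 6.81 in liver and 7.22 and 7.60 in kidney.

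Of the enzymes outside these pathways, Lactb2, a mitochondrial ribonuclease, read 2.80 and 2.88 in liver and 3.14 and 3.0 in kidney, with a median of -0.54 elsewhere. Ddt, a tautomerase related to the cytokine MIF, read 3.30 and 3.48 in liver and 2.25 and 2.51 in kidney. Mettl26 (0610011F06Rik), a methyltransferase-like protein counted with the nuclear and RNA group, read 4.08 and 4.20 in liver and 4.18 and 3.99 in kidney. The highest other array for Mettl26 was large intestine replicate 2 at 2.98, while its replicate 1 read 1.98. These 3 genes were detected on all 26 other arrays.

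Adra2b, an alpha adrenergic receptor, read 3.50 and 3.58 in liver and 4.66 and 4.47 in kidney, with a median of 1.13 elsewhere. A pair of further Adra2b probes on the array, which are not in the value table, did not show this. One read 0.09 and 0.05 in liver and 0.21 and 0.58 in kidney, and the other 0.10 and 0.76 in liver and 0.07 and 0.02 in kidney. Across the 30 arrays, which share the reference, their Pearson r with the Adra2b probe of the table was 0.15 and 0.32, given as a description.

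Among the long noncoding RNAs, 0610031O16Rik read 4.69 and 5.17 in liver and 3.97 and 3.22 in kidney. Gm5524 (EG433281) read 5.89 and 6.16 in liver and 2.88 and 2.08 in kidney. For 4933438K21Rik the values were 3.56 and 3.97 in liver and 2.35 and 2.28 in kidney. The last of the 4, 5730435O14Rik, read 3.02 and 2.69 in liver and 1.16 and 1.21 in kidney. All 4 were detected on 6 or fewer of the other 26 arrays, and all 4 were higher in liver than in kidney.

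**Figure D2:**
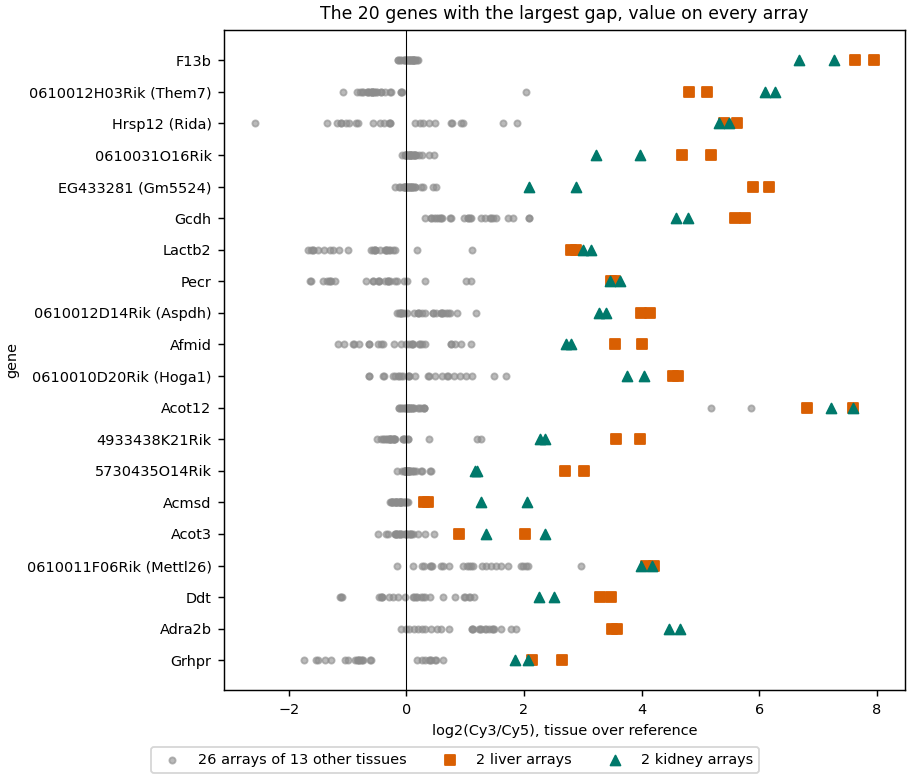
Log2(Cy3/Cy5) on every array (x axis) for the 20 genes with the largest gap (rows): liver as squares, kidney as triangles and the 26 arrays of the other tissues as circles. F13b circles sit between -0.15 and 0.20, Acot12 has 2 circles above 5 that are small intestine, and the liver squares of Acmsd lie close to the circles.

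At the edge of the list the gap was small. The last genes inside were Ipo8, an importin, at 1.41-fold and 1700067K01Rik at 1.40-fold. The next probes outside were 4932439E07Rik and Pm20d1, both at 1.37-fold. Pm20d1 read 6.09 and 6.16 in liver, 5.51 and 5.45 in kidney and 5.19 and 4.78 in small intestine, with heart at 3.60 the highest of the remaining tissues.

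CpG islands and TATA boxes are sequence features that the study set against tissue specificity, and promoter sequence was therefore set beside the expression of the 60 genes. The measures used here differ from those of the study. It sought a degenerate TATA pattern in a short stretch upstream of the start and called CpG islands with a dedicated program. The shares below are therefore not comparable with its own. RefSeq promoters of 300 bases (250 before the start and 50 from it on, GRCm38.p6) were found for 51 of the 60 genes, 64 promoters in all. The observed over expected CpG ratio had a median of 0.70 over these promoters and 0.38 over all 32851 in the table. Within the list it differed with how widely the gene was detected. It had a median of 0.20 over 10 genes detected on 10 or fewer other arrays and 0.76 over 38 genes detected on 23 or more. A ratio above 0.6 was found in 1 of the 10, which was Acot12 at 0.64, and in 29 of the 38.

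A TATA box (TATAAA, sense strand) was in 3 of the 64 promoters (4.69%) and in 8.32% of all promoters. The HNF1 motif GTTAAT, searched on both strands, was in 5 of 64 (7.81%) and in 7.10% of all. The HNF4 motif AAAGTCC, on both strands, was in 2 of 64 (3.12%) and in 4.21% of all. No motif holds another as a part, and over the whole window none was more common in the list by more than 1 percentage point.

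The matches are shown for the 5 genes in which an HNF1 or HNF4 motif lay within 60 bases before the start, a distance chosen after the matches were seen. The HNF1 motif in that stretch was in 3 of 64 promoters (4.69%) and 1.38% of all, and the HNF4 motif in 2 of 64 (3.12%) and 0.816% of all. Capitals mark the motif, which for HNF1 is its reverse complement on the strand shown. Each is written 5′ to 3′ on the strand of the gene, from RefSeq on GRCm38.p6. For F13b and Hoga1 the bases lie inside the annotated gene, whose outermost start is further upstream, and 30 bases are given.
F13b (HNF1, plus strand, chr1:139501644-139501673): gacattgtaattATTAACttgttttgtcaa
Hoga1 (HNF1, plus strand, chr19:42045825-42045854): tgtatgtagatcATTAACagagcggggagg
Gm5524 (HNF1, plus strand, chr1:27883946-27884045): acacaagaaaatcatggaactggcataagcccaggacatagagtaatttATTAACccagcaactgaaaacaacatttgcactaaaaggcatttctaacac
Aspdh (HNF4, plus strand, chr7:44465335-44465434): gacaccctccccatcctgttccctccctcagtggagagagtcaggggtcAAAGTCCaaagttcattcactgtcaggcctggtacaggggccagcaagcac
Hnf4aos (HNF4, minus strand, chr2:163541722-163541821): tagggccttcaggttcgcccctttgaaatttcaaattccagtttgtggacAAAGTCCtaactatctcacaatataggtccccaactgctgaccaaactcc
The first base of the motif lay 51 bases before the start in F13b, Gm5524 and Aspdh, 50 in Hnf4aos and 33 in Hoga1. A match describes the letters and is not a site of binding.

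Liver was compared with kidney to ask where the shared genes differ between the 2 organs. The rule ranked genes on the lower of the 2, which sets no limit on the higher one and does not fix the direction. At an adjusted p under 0.05 (limma, Benjamini-Hochberg over all 21026 probes) and a log2 difference of at least 1, 9 of the 60 genes were higher in liver, against 8.38% of all probes, and 6 were higher in kidney, against 10.4%. As shares of the list these were 15% and 10%. The kidney count and share include Acmsd, which passed the filter only through kidney and was not measured above background in liver. The median difference was 0.10 over the 60 genes and 0.03 over all probes, and the median size of the difference was 0.41 and 0.37. Most of the 60 genes, 45, were not called in either direction. Errors given below are SE, with n = 2 arrays for each tissue.

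The largest difference was in Etnk2, an ethanolamine kinase of phospholipid synthesis. It read 6.25 and 6.26 in liver and 2.30 and 2.36 in kidney, a difference of 3.92 ± 0.45 (SE, adjusted p = 1.47e-06 in limma). Brain cortex, at 1.44 and 1.85, was next below kidney. Gm5524 differed by 3.54 ± 0.19 (adjusted p = 1.99e-11 in limma), with the values given above. Both liver arrays exceeded both kidney arrays in each.

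Ahcy, which hydrolyses the S-adenosylhomocysteine left by methylation, read 4.18 and 4.40 in liver and 2.65 and 2.44 in kidney. The difference was 1.75 ± 0.15 (adjusted p = 3.03e-08 in limma). A further Ahcy probe outside the value table read 2.71 and 2.89 in liver and 0.78 and 0.56 in kidney, a difference of 2.14 in the same direction.

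Pdilt (1700007B13Rik), a protein disulphide isomerase-like chaperone known from testis, read 5.44 and 5.48 in liver and 3.95 and 3.84 in kidney, a difference of 1.57 (adjusted p = 2.5e-05 in limma). The noncoding RNAs 5730435O14Rik, 4933438K21Rik and 0610031O16Rik were higher in liver by 1.67, 1.45 and 1.34. Afmid and Ddt were higher by 1.02 and 1.01, close to the limit of 1. Some of these calls rested on 1 library, the one left being assumed to vary like the other tissues: without liver replicate 2 Afmid fell to 0.79 and Ddt to 0.92, without kidney replicate 1 to 0.97 and 0.88, and without kidney replicate 2 0610031O16Rik fell to 0.97. With median centring Pdilt (0.90), 0610031O16Rik (0.89), Afmid (0.46) and Ddt (0.81) were below 1. With the authors' value table or processed signals the calls of Pdilt and 4933438K21Rik were lost, though their differences in the value table were 1.07 and 1.62 (adjusted p = 0.214 and 0.0511 in limma), on Cy3 alone those of 4933438K21Rik and 0610031O16Rik, and with slide as a random block that of Afmid.

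In the other direction, 1700067K01Rik read 2.18 and 2.21 in kidney and 0.50 and 1.04 in liver, a difference of -1.42 ± 0.29 (adjusted p = 7.29e-04 in limma). The noncoding RNA 3110045C21Rik read 2.68 and 2.50 in kidney and 1.19 and 1.21 in liver, a difference of -1.39 ± 0.18 (adjusted p = 6.72e-06 in limma). Pyroxd2 (4833409A17Rik), an oxidoreductase of mitochondria, read 3.24 and 3.07 in kidney and 1.84 and 1.81 in liver, a difference of -1.33 ± 0.39 (adjusted p = 0.0134 in limma).

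Them7 was higher in kidney by a difference of -1.22 ± 0.39 (adjusted p = 0.0228 in limma) and Adra2b by -1.02 ± 0.29 (adjusted p = 0.0118 in limma), and the sixth call was Acmsd, set against a liver level that was not measured above background. The kidney calls depended on the values used. With the authors' value table or with the processed signals only 1 of the 60 genes was called higher in kidney, with slide as a random block 2, and without liver replicate 1 there were 3. With the value table the genes 1700067K01Rik (-1.44) and Pyroxd2 (-1.17) still differed by over 1, with adjusted p of 0.0852 and 0.0725 in limma. The call of 1700067K01Rik was also lost on Cy3 alone and with slide as a random block (adjusted p = 0.079 in limma). Leaving out any 1 of the 4 arrays ended the call of Them7, with differences from -1.07 to -1.37 and adjusted p from 0.0544 to 0.136 in limma. The call of Pyroxd2 ended without liver replicate 1 (-1.34), liver replicate 2 (-1.31) or kidney replicate 1 (-1.25), and that of Acmsd without kidney replicate 2. Adra2b lost its call without liver replicate 1 (-0.99) or kidney replicate 1 (-0.93). Its value also moved most with the scale, to 0.14 with the value table and -4.12 on Cy3 alone.

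For 39 genes the difference had an adjusted p of 0.05 or more, and 27 differed by less than 0.3. Pecr differed by -0.03 ± 0.14 and Rida by 0.11 ± 0.39. In 6 genes the adjusted p was below the threshold but the difference was under 1, among them F13b (0.82 ± 0.17, adjusted p = 8.29e-04 in limma), Gcdh (0.99 ± 0.13, adjusted p = 7.43e-06 in limma) and Aspdh (0.74 ± 0.17, adjusted p = 0.00266 in limma). The differences of the 10 nuclear and RNA genes ran from -0.44 to 0.74.

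**Figure D3:**
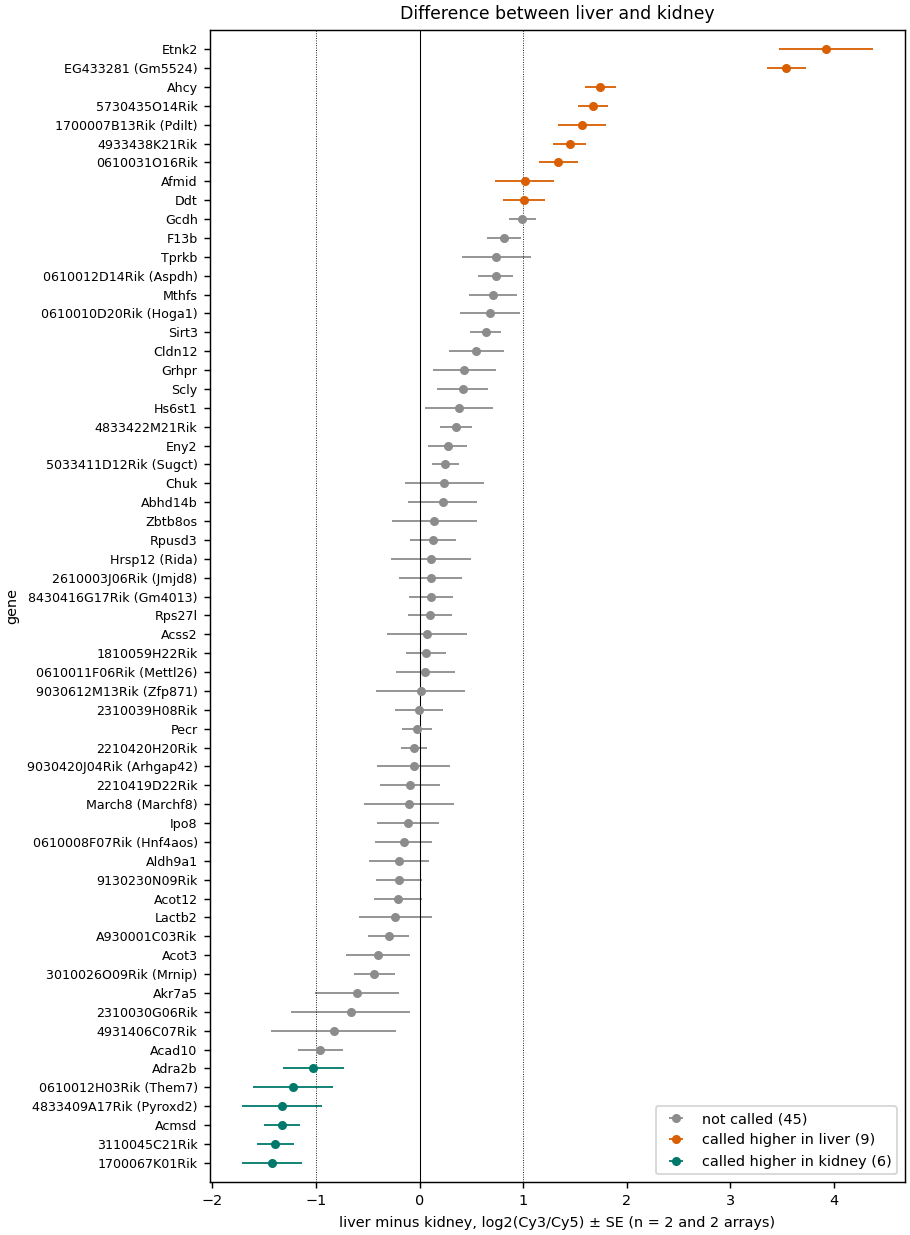
Liver minus kidney on the log2 scale (x axis, points with SE bars, 2 arrays a tissue) for the 60 genes (rows, sorted). Filled colours mark the 9 genes called higher in liver and the 6 called higher in kidney, Acmsd with its unmeasured liver level among them. Dotted lines mark a difference of 1. Etnk2 at 3.92 and Gm5524 at 3.54 stand clear of the rest.

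Small intestine was compared with the mean of the 12 remaining tissues. The rule used it only as an upper limit, as it did every tissue outside liver and kidney. Small intestine was the next tissue in the value table for 17 of the 60 genes and fat for 12. In the test 12 genes were higher in small intestine, 20% of the list against 11.6% of all probes, and 2 were lower, 3.33% against 11.1%. The median difference was 0.39 over the 60 genes and -0.10 over all probes.

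Acot12 read 5.17 and 5.87 in small intestine, and the mean of the 12 tissues was 0.07, a difference of 5.45 ± 0.17 (adjusted p = 1.49e-14 in limma). On only 4 of the 24 arrays of those tissues, and on 2 of 30 arrays for the reference, was its signal well above background, so the difference was taken largely against background and its size is not a measured fold. Hnf4aos (0610008F07Rik), a noncoding RNA transcribed opposite the gene of HNF4 alpha, read 4.69 and 4.48 in small intestine, with liver at 6.24 and 5.13 and kidney at 5.98 and 5.71. Its difference was 4.54 ± 0.20 (adjusted p = 2.07e-12 in limma), with the signal well above background on 13 of the 24 arrays. Outside these 3 organs the highest tissue mean of Acot12 was 0.21 and of Hnf4aos 0.42.

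Aldh9a1, the aldehyde dehydrogenase of carnitine synthesis, read 1.92 and 1.68 in small intestine, 2.20 and 2.40 in liver and 2.62 and 2.38 in kidney. Its difference from the 12 tissues was 2.71 ± 0.21 (adjusted p = 7.45e-09 in limma), and the highest of those tissues was bladder at -0.15. The gene 4931406C07Rik, a predicted hydrolase, differed by 2.64 ± 0.44 (adjusted p = 7.36e-05 in limma), with fat at 2.94 next to small intestine at 3.67 and 3.57. Ahcy differed by 1.97 ± 0.11 (adjusted p = 7.87e-11 in limma), with 1.28 and 1.29 in small intestine and a mean of -0.68 in the 12 tissues.

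Of the 7 other genes called higher, Pyroxd2 (1.91), Akr7a5, an aldehyde reductase (1.86), and Chuk, the kinase IKK alpha (1.58), had the largest differences. The 2 genes called lower were Rida, at -1.18 and -1.35 in small intestine (difference -1.17 ± 0.29, adjusted p = 0.00245 in limma), and Etnk2, at -1.44 and -0.88 (difference -1.01 ± 0.33, adjusted p = 0.0181 in limma). Etnk2 lost its call, falling below 1 in size, without fat replicate 1 (-0.94) or without small intestine replicate 1 (-0.73). Its call was also lost on Cy3 alone, on the arrays of the small intestine scan day and with slide as a random block. Without small intestine replicate 1 the calls of 2310030G06Rik (1.34) and A930001C03Rik (0.93) were lost too. With median centring 8 of the 12 higher calls were made, without Arhgap42 (0.98), 2310030G06Rik (1.11), A930001C03Rik (0.89) and Tprkb (0.93). With scan day as a random block 2310030G06Rik (0.78) and Tprkb (0.76) were below 1, and with slide as one Tprkb (0.85). On the arrays scanned on the same day as small intestine, 11 genes were higher and 1 lower.

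**Figure D4:**
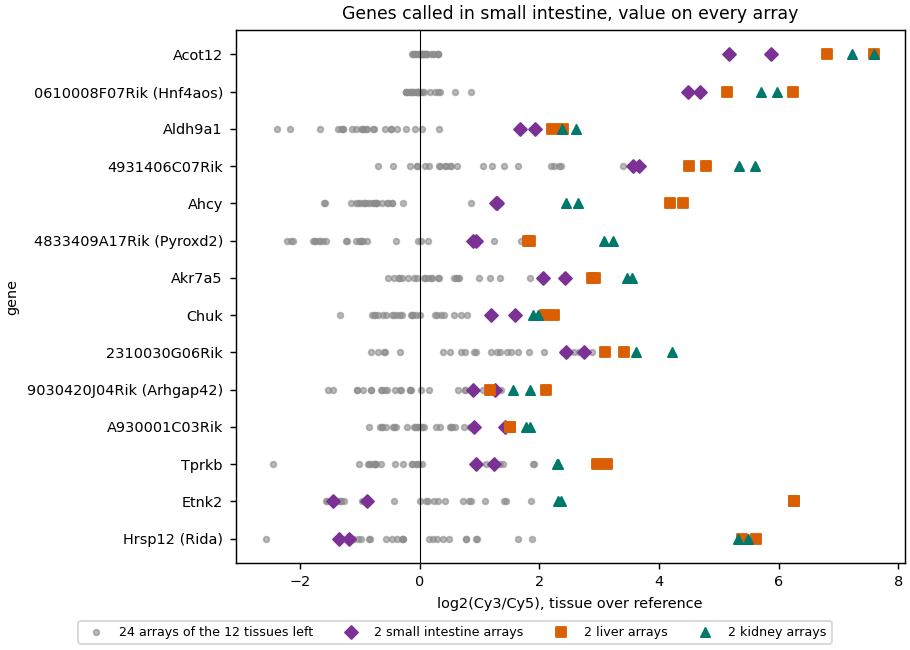
Log2(Cy3/Cy5) on every array (x axis) for the 14 genes called in small intestine (rows, largest difference on top): small intestine as diamonds, liver as squares, kidney as triangles and the 24 arrays of the 12 other tissues as circles. In Acot12 and Hnf4aos the diamonds lie above 4 and every circle below 1. In the lowest rows, Etnk2 and Rida, the diamonds lie among the lower circles.

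Fat was next after liver and kidney for 12 genes, and its 2 arrays differed. The difference between them exceeded 1 for 12 of the 60 genes, against 24 for the large intestine arrays, 4 for bone, 2 for liver, 1 for kidney and 0 for each other tissue. The median size of the difference was 0.84 in large intestine, 0.32 in fat and 0.19 in liver and in kidney. Without large intestine replicate 1 the rule found 57 of the 60 genes again, losing Rpusd3, Jmjd8 and Acad10, and the counts in small intestine stayed at 12 higher and 2 lower. In 9 of the 12 genes of fat replicate 1 was higher. It read 2.39 against 0.32 for Akr7a5, 2.39 against -0.59 for 2310030G06Rik, 1.69 against -0.03 for Pyroxd2 and 1.41 against -0.43 for Etnk2. In the 3 other genes replicate 2 was higher, with 4.45 against 2.37 for Acss2, the cytosolic acetyl-CoA synthetase, 3.69 against 2.19 for 4931406C07Rik and 1.11 against -0.29 for Lactb2.

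The summed hepatocyte markers read 6.64 on fat replicate 1 and 3.64 on fat replicate 2, the summed kidney markers 2.83 and 2.92, and the summed enterocyte markers, 6 of 7 listed, 3.92 and 2.39. The enterocyte genes Lct (2.11 against -0.03), Akp5 (2.47 against -0.01) and Vil1 (1.75 against -0.05) read higher on replicate 1, and Ada (-1.34 against -1.21) read lower. Sis (-1.25 against -0.19) and Alpi were at background on both. On fat replicate 1 Cps1 read -0.34, Serpinc1 -0.03, F13b 0.02 and Ren1 0.13, while C4bp read 6.5 against -0.18 on fat replicate 2. The adipose enzyme Agpat2, the 1 measured fat marker of 5 listed, read 1.65 on replicate 1 and 2.93 on replicate 2. Their part in the differences between the fat arrays was not tested. Without fat replicate 1 the rule found 56 of the 60 genes again, and the 4 lost were Sugct (5033411D12Rik), Acss2, 3110045C21Rik and Jmjd8 (2610003J06Rik).

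**Figure D5:**
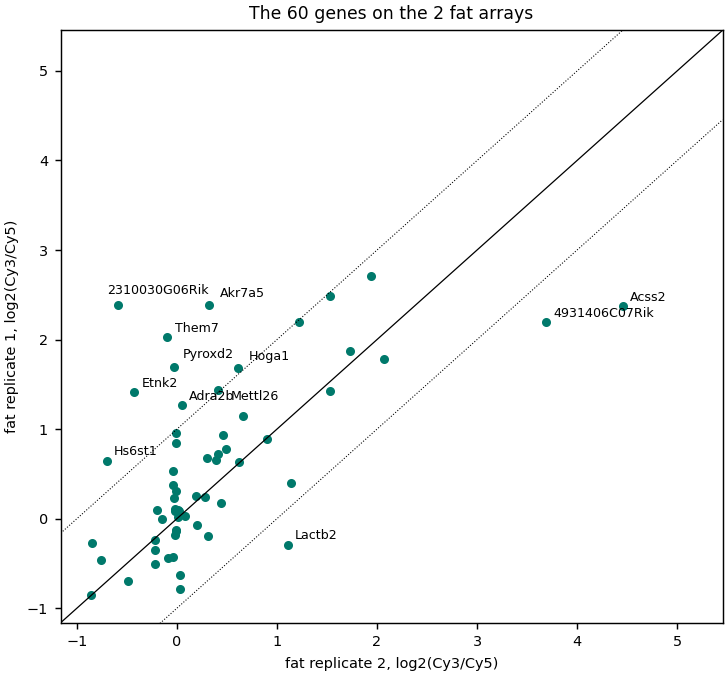
Log2(Cy3/Cy5) of the 60 genes on fat replicate 2 (x axis) and fat replicate 1 (y axis), 1 point a gene, with the line of equality and dotted lines 1 unit away. The 12 named genes lie more than 1 unit from equality, 9 above it and 3 below.

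The list was described on other scales too. The same rule found 52 of the 60 genes on the log2 ratio, 50 on the Cy3 level alone and 43 with median centring, and 39 were found on all 3. Of the 20 genes with the largest gap 19 were among these 39, and Acmsd was the exception. On the 14 arrays of 8 tissues scanned with liver and kidney it found 37.

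The liver and kidney pair was set beside the other pairs of tissues by the number of probes, named or not, whose gap was at least 0.5 on the log10 scale (3.16-fold). Liver and kidney shared 95 such probes, which ranked 2 among the 105 pairs, and 15 of the 60 genes were among them. Brain cortex and cerebellum shared 249, large and small intestine 86, skin and stomach 68, and the median pair 3. Liver and small intestine shared 26. At a gap of at least 1 liver and kidney shared 28 and large and small intestine 40.

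The other named genes of the same pathways were tested in liver and in kidney, each against the mean of the other 13 tissues, leaving the 60 genes out. Many listed genes had no named probe. Counting members, 38 of 61 were found for acyl-CoA and fatty acid oxidation. For amino acid and nitrogen metabolism 14 of 66 were found, and for drug and steroid handling 14 of 39. Over all probes 11.5% were higher in liver, 10.1% in kidney and 4.43% in both. The 2 comparisons share the 13 tissues. Of 34 other genes of acyl-CoA and fatty acid oxidation, 20 were higher in liver, 22 in kidney and 14 in both. The median difference was 1.16 in liver and 1.22 in kidney, against -0.10 and -0.11 over all probes.

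In that list Acsm3, a medium-chain acyl-CoA synthetase, read 7.24 and 7.33 in liver and 7.77 and 7.64 in kidney, but large intestine reached 5.39. Acaa1b, a peroxisomal thiolase, read 5.57 and 5.72 in liver and 5.38 and 5.19 in kidney with bladder at 5.31. At the low end the thioesterase Acot6 was lower in liver by a difference of -1.63 and read 0.80 above the mean in kidney.

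Of 8 other genes of amino acid and nitrogen metabolism 6 were higher in liver, 3 in kidney and 3 in both. Abat, which breaks down GABA, was higher by 3.55 in liver and 3.31 in kidney, with cerebellum as high at 6.69. Cps1, the first enzyme of the urea cycle, was higher by 8.47 in liver while its difference in kidney was -0.98 (adjusted p = 0.178 in limma, with kidney at background on both arrays), and Agxt, which removes glyoxylate, differed by 6.19 and -0.21. Ada was lower in kidney by a difference of -1.23. Cps1 also read 7.0 and 6.66 in small intestine, and neither Cps1 nor Agxt was called higher in kidney.

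Of 12 other genes of drug and steroid handling 8 were higher in liver, 6 in kidney and 4 in both, among them the glutathione transferase Gsta3 (6.23 and 3.05) and the glucuronosyltransferase Ugt1a6a (3.49 and 2.88). The sulphotransferase Sult2a8 (2810007J24Rik) was higher by 7.32 in liver and differed by -0.23 in kidney. Ugt1a2 differed by 0.47 and -0.12. Of 76 transporters 12 were higher in liver, 17 in kidney and 5 in both, while 15 were lower in liver and 10 in kidney. The drug exporter Abcg2 was higher by 1.98 and 3.74 and the iron exporter Slc40a1 by 3.04 and 1.40, Slc1a2 (2900019G14Rik) was higher by 4.6 in liver and differed by 0.43 in kidney, and Abcc8 and Abcg4 were lower in both.

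The nuclear receptors Nr1i3 and Nr5a2 and the ligand-activated transcription factor Ahr, the 3 measured of 14 listed nuclear receptors and hepatic factors, were all higher in liver, by 4.10, 2.28 and 1.51. In kidney they differed by -0.37, -0.27 and -0.98, and 0 of 3 were called higher. Sugar metabolism had 1 measured gene of 22 listed, the sialic acid lyase Npl, which was higher by 2.03 in kidney and differed by -0.87 in liver. Over all lists together 25 of 131 genes (19.1%) were higher in both organs.

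Positions were taken from the RefSeq annotation (GRCm38.p6). Among 106 pairs of the 60 genes on a common chromosome, 4 lay within 1 Mb of each other. The nearest were Mettl26 and the jumonji domain gene Jmjd8 on chromosome 17, 43.7 kb apart with 7 genes between them. Ahcy and Acss2 on chromosome 2 were 444 kb apart with 16 genes between. Close pairs were not counted over all named probes, so nothing is concluded about clustering. Chromosome 1 held 10 of the 60 genes and 1035 of the 5148 named probes with a position.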

How the data were processed

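Total RNA of each tissue was labelled with Cy3 and the common reference with Cy5. Spot files were made by the authors with Agilent Feature Extraction 9.5.1.1. They hold the mean signal and local background of both channels as intensity in scanner units, with deposited flags (another kind of value) for outliers and for signal well above background. The authors' value table gives log10 of the Cy3 level adjusted for the reference, and its rows were matched to spots by feature number. Members and lists were chosen with earlier results of these data known. Names came from the study's probe lists and were updated through a RefSeq gene table (GRCm38.p6): 57 of the 60 genes had a current symbol, 16 under a changed name.

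Signals were background-corrected by normexp (offset 50), control spots and 475 outlier-flagged spot values (0.0377%) were removed, and arrays were normalised by loess. Probes with Cy3 well above background on each of the 2 arrays of 1 or more tissues were tested (21026 of 25030), with limma 3.58.1 in R 4.3.3, 1 coefficient per tissue over 30 arrays. Tests were two-sided with Benjamini-Hochberg adjustment, called at 0.05 and a log2 difference of 1. There were 4 such comparisons: liver with kidney, small intestine with 12 tissues, and liver and kidney each with 13 tissues. The procedure was checked on simulated data. Alternatives were other normalisations (median centring, Cy3 alone, processed signals, the value table), filters, thresholds, slide, scan day or replicate as blocks, and arrays left out. Bounds use Cy3 after loess and Aquantile. The number of arrays limits the precision. Genes described with values were the 20 with the largest gap, the 5 with the largest called difference each way between liver and kidney, the 5 largest in small intestine, those beside the threshold and those in a list, with 3 largest and 2 smallest examples for the others of a list, some of which are not reported here. Other genes named (on fat, on left-out arrays, by position) were chosen after their values were seen.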

Additional observations from a re-analysis of the deposited data

Results flagged for a closer look

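Further probes of 4 of the 60 genes, 5 probes in all, were on the arrays but not in the value table. For 3 of them the signal was well above background on all 4 liver and kidney arrays and the lower of liver and kidney exceeded the highest other tissue. The excess was 1.30 on the log2 scale for Ahcy, 0.52 for Jmjd8 and 0.19 for Arhgap42 (9030420J04Rik), against 1.26, 0.57 and 0.44 for the probe of the table. The 2 further Adra2b probes had an excess of -0.46 and -0.44 against 1.86 for the probe of the table. Groups of 2 arrays are too small for a test of outlying samples.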

How the results depend on the processing

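Between liver and kidney, 226 of 269 combinations of a called gene with an alternative kept the call, 41 lost it and 2 reversed: Adra2b read 0.1407 with the authors' value table and 0.1406 with processed signals. The calls of Etnk2, Gm5524, Ahcy, 5730435O14Rik and 3110045C21Rik held under all 18 alternatives other than the size threshold. The count higher in liver (9) fell to 5 with median centring and was 14 and 2 at a log2 threshold of 0 and 2. The count higher in kidney (6) was 1 with the value table, 1 with processed signals, 2 with slide as a random block and 0 at a log2 threshold of 2. Leaving out 1 liver or kidney array gave 7 to 10 higher in liver and 3 to 5 higher in kidney. In small intestine 180 of 196 combinations kept the call and 0 reversed. At a log2 threshold of 0 and 2 the counts higher (12) were 26 and 4, and the counts lower (2) were 4 and 0. The count lower was 1 with slide as a random block, without fat replicate 1, on the small intestine scan day and without small intestine replicate 1, and leaving out 1 small intestine array gave 12 to 13 higher and 1 to 2 lower. List genes higher in liver (48) and kidney (47) fell to 28 and 20 at a log2 threshold of 2 and otherwise stayed within 1.5 times, without 1 liver or kidney array 47 to 48 and 43 to 47. Without 1 of those arrays 53 to 57 of the 60 genes were found again, 37 on the liver and kidney scan day and 10 with unnamed probes counted. The pair count was 28 at a gap of 1. The cause of these changes was not tested. Whether replicate numbers pair the arrays is not known. Deviations correlated at r = -0.25 between liver and kidney, the lowest of 105 pairs of tissues, and at 0.34 in the highest. With 2 arrays per tissue the sign of r depends on the numbering, so these values cannot decide it. The replicate block left 9, 6, 12 and 2, as did the main model. With kidney numbers crossed, an alternative chosen after seeing the data like those on fat, large intestine and scan days, the counts were 9 and 6. Another scaling moved the median of all probes for liver minus kidney from 0.03 to -0.09 (median centring) and 0.18 (Cy3 alone).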
